A study of Homo sapiens with 15 samples.

Results

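Cancer stem cells (CSC) and the remaining cells (non-CSC) of SUM149PT, an established triple negative breast cancer cell line, were compared by RNA sequencing. The comparison uses 6 of the 15 samples of the study, 3 of SUM149PT CSC and 3 of SUM149PT non-CSC, taken by their labels. The CSC were the cells with high CD44 and absent or low CD24 on their surface, separated by fluorescence activated sorting after staining with antibodies to both proteins, and the non-CSC were the other cells of the same line. No treatment distinguishes the fractions, and each group is a single line, so nothing here extends to other tumours. Of 33158 genes in the deposited table, 11992 had a mean of at least 1 FPKM (fragments per kilobase of transcript, scaled by library size) over the 6 samples and were tested. The labels do not say whether the 3 samples of a fraction come from separate cultures or sorts, so the p-values measure only the spread between these samples.

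Breast epithelium consists of luminal cells, which face the duct, and basal cells, which lie on the basement membrane, and both are held together by cadherins, tight junctions and desmosomes. In epithelial-mesenchymal transition (EMT), factors such as ZEB1 and SNAI2 repress these junction genes, and the cells take up vimentin, N-cadherin and a matrix of collagens. Breast cells with high CD44 and low CD24 have been associated with such a mesenchymal state and with the ability to start tumours.

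The samples of a fraction resembled each other closely. Across the genes tested, log2(FPKM + 0.1) correlated at 0.962 to 0.975 between samples of a fraction and at 0.735 to 0.758 between samples of different fractions. Genes are not independent replicates, and these correlations only describe the samples. Summed FPKM was 291276, 316860 and 300811 in the CSC samples and 320982, 300358 and 315192 in the non-CSC samples, so the totals of the fractions overlap. The number of genes with at least 1 FPKM did not overlap, at 11249 to 11262 in CSC and 11947 to 11997 in non-CSC. FPKM values hold no read counts. Some low values moved in steps between samples (7.54% to 26.6% of the genes under 0.05 FPKM shared a common ratio), but whole reads could not be recovered, and the depth of each sample is unknown. In each sample 10 or 11 of 82 genes with names of ribosomal proteins were under 1 FPKM. The 82 include forms with restricted expression, such as RPL39L, so not all of them are expected in every cell. Whether a value of 0 means absent RNA is unknown, and a gene at 0 is described only as listed at 0.

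The sort used the CD24 and CD44 proteins, so the RNA of these genes checks the labels and is no finding. CD24 was 18.02 times as high in non-CSC, with no overlap between the samples. CD44 differed little, with a log2 fold change of 0.39 (CSC minus non-CSC, on the log2(FPKM + 0.1) scale, which understates the change of genes with low FPKM). Lineage markers also divided the fractions. All 6 tested luminal markers of 8 were lower in CSC, and their summed level, mostly KRT19, was 122.3 to 127.9 FPKM in CSC and 1525 to 1567 FPKM in non-CSC. Of 6 basal markers, 1 was higher and 3 were lower, and their sum, mostly KRT17, was 112.5 to 115.7 against 763.6 to 819.2 FPKM. Of 7 mesenchymal markers, 5 were higher and 1 was lower, and their sum, mostly VIM, was 2377 to 2521 FPKM in CSC and 463.5 to 523.7 in non-CSC. The CSC fraction of this line was therefore poor in luminal marker RNA and rich in mesenchymal marker RNA. In bulk samples, fewer cells of a type and less RNA per cell cannot be told apart.

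Markers of other cell types were also read, although a cell line holds no leukocytes, vessels or stroma. Among 5 leukocyte markers, CD3E and MS4A1 were listed at 0 in all 6 samples, PTPRC was at 0.00543 against 0.00530 FPKM as a mean, and CD14 and CD68 were lower in CSC. Their sum, mostly CD68, was 18.17 to 19.28 FPKM in CSC and 95.63 to 102.7 in non-CSC. None of the 3 endothelial markers reached the minimum, with sums of 0.1568 to 0.1714 and 1.591 to 1.827 FPKM and VWF the most abundant. Of 6 fibroblast markers, PDGFRA, PDGFRB, COL1A1 and COL3A1 were higher and DCN was lower in CSC, with a sum, mostly COL1A1, of 238.6 to 244.2 against 67.39 to 70.98 FPKM. In the wider list of 27 such markers, 7 were tested, 4 were higher and 3 were lower (median log2 fold change 2.14). Their part in the differences between the fractions was not tested.

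A gene was called where limma's adjusted p was at most 0.05 and the absolute log2 fold change was at least 1. Of the 11992 genes tested, 3623 were called (30.2%), 1441 higher in CSC (12%) and 2182 lower (18.2%), so 39.8% of the calls were higher. After quantile normalization of the samples, which moved the median log2 fold change of all genes from −0.04 to 0.11, 1889 genes were higher and 1837 lower (50.7% higher). With the study's limit of 0.0001 on the false discovery rate, with the fold limit used here added, 3166 genes were called (26.4%), 1263 higher and 1903 lower, or 510 and 940 with the replicate number as a block. The paper also set a limit on an enrichment score, which was not computed here, so these counts do not repeat its own call. The lower genes also changed by more: 1019 genes were lower and 432 were higher by at least 2 on the log2 scale. The CSC and non-CSC samples did not overlap in 9916 genes (82.7%), among them 3621 of the called genes. Lack of overlap is therefore usual, and where it is said of single genes below it only describes them. As the minimum was set on the mean over both fractions, a gene seen in a single fraction could pass through that fraction alone, and the counts over gene lists that follow are descriptions.

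**Figure D1:**
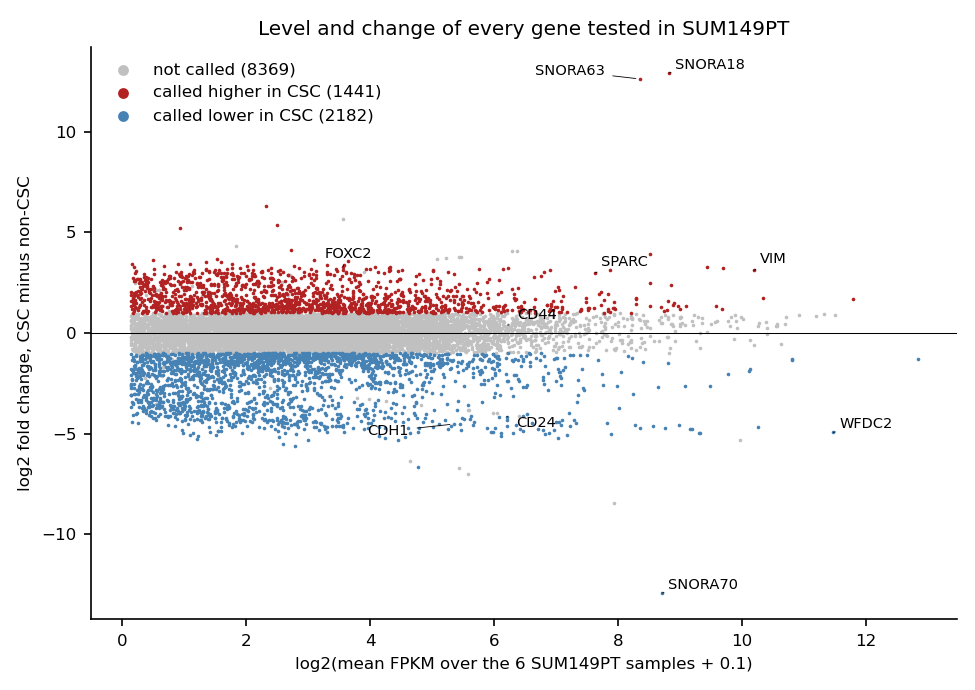
Mean level of each of the 11992 genes tested (x axis, log2 of the mean FPKM over the 6 SUM149PT samples plus 0.1) against its log2 fold change (y axis, CSC minus non-CSC). Red points are the 1441 genes called higher in CSC, blue points the 2182 called lower and grey points the genes not called, and many lower genes lie in a band near −4 to −5 where few higher genes have a counterpart.

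The functions that changed were read from 39 gene lists, of which 38 had members in the table, beside the background of all genes tested (12% higher, 18.2% lower, median −0.04). Some genes stand in more than 1 list. Lists of secreted and surface products of epithelia were almost wholly lower in CSC, and lists of mesenchymal and matrix genes were mostly higher. Lists of proliferation, respiration, glycolysis and NF-kappaB signalling had medians close to 0. The plot of the lists shows the counts and medians, with the medians of the same genes in HCC1937, the other sorted line of the study. These genes passed the minimum in SUM149PT, and no minimum was set in HCC1937.

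**Figure D2:**
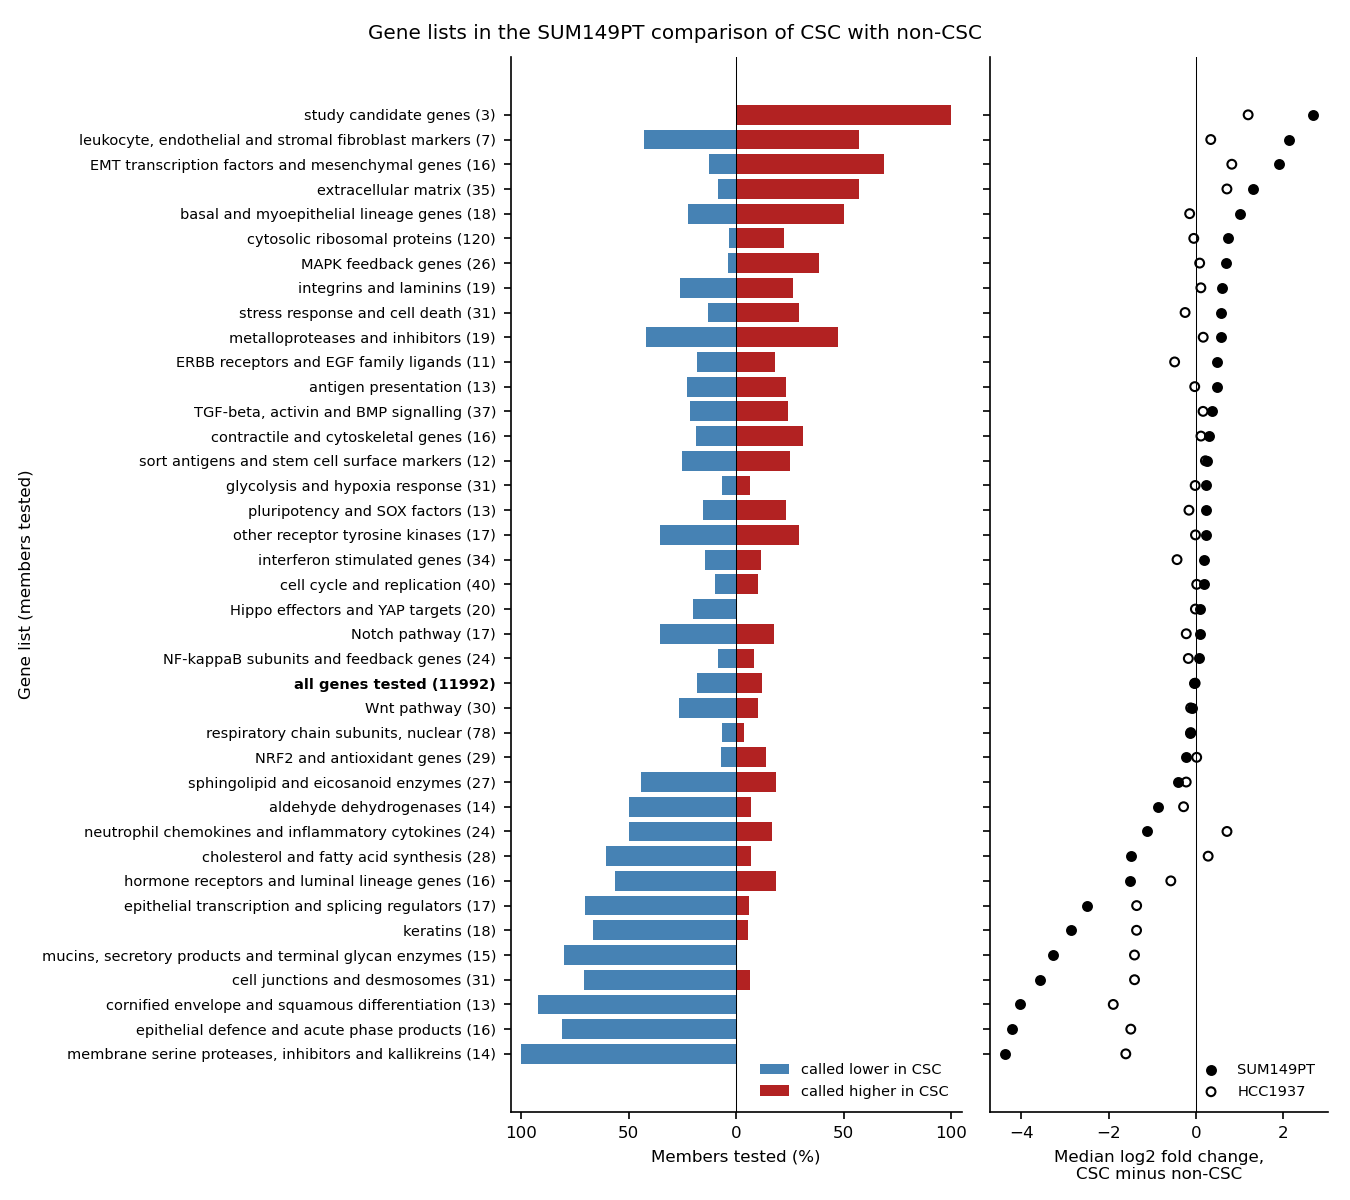
Left, the share of each list's tested members (number in brackets, x axis in percent) that was called higher (red, to the right) or lower (blue, to the left) in SUM149PT CSC. Right, the median log2 fold change of the same members in SUM149PT (filled circles) and HCC1937 (open circles), with all genes tested in bold at −0.04 in SUM149PT, so that lists of epithelial products lie far to the left and EMT and matrix lists to the right.

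Genes that join epithelial cells to each other were lower in CSC. CDH1, which encodes E-cadherin of the adherens junction, was at 3.37, 3.04 and 3.56 FPKM in the CSC samples and 80.3, 80.9 and 73.7 FPKM in the non-CSC samples. CLDN7, a tight junction claudin, was at 8.77, 7.98 and 8.68 FPKM in the CSC samples and 241, 239.8 and 243 FPKM in the non-CSC samples. EPCAM, an epithelial adhesion molecule, was at 2.39, 2.03 and 3.03 FPKM in the CSC samples and 60.3, 53.8 and 52.1 FPKM in the non-CSC samples. In all of these genes every CSC sample lay far below every non-CSC sample. CDH1 had a log2 fold change of −4.52 ± 0.0775 (SE, adjusted p = 1.24e-07), SE being the standard error, and its non-CSC mean was 23.6 times its CSC mean. CLDN7 had a log2 fold change of −4.82 ± 0.0573 (SE, adjusted p = 9.73e-08) and EPCAM a log2 fold change of −4.44 ± 0.145 (SE, adjusted p = 7.47e-07). Of 35 listed junction and desmosome genes, 31 were tested, 22 were lower, 2 were higher and 7 were not called, with a median of −3.57. Another claudin gene, CLDN4, was at 19.3 against 434 FPKM, 22.5 times as high in non-CSC. The desmosomal cadherins DSG3 and DSC3 and the plakophilin PKP1 had log2 fold changes of −4.59, −4.33 and −4.47. P-cadherin, CDH3, was at 4.76 against 93.4 FPKM (CSC against non-CSC means). Not every component was lower. CTNNB1, encoding beta-catenin, was at 54.8 against 63.004 FPKM and was not called. Claudin CLDN1 was higher in CSC, at 68.3, 68.5 and 69.1 FPKM in the CSC samples and 14.1, 13.9 and 14.5 FPKM in the non-CSC samples, and so was PVRL4, encoding nectin-4, at 37.99 against 17.7 FPKM.

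Regulators that keep cells epithelial changed with the junction genes. Of 22 listed, 17 were tested, 12 were lower and 1 was higher, with a median of −2.50. ESRP1, which directs epithelial splicing, was at 1.79, 1.61 and 1.59 FPKM in the CSC samples and 30.5, 27.8 and 26.3 FPKM in the non-CSC samples. GRHL2, a transcription factor that sustains CDH1 and other junction genes, was at 0.153, 0.268 and 0.253 FPKM in the CSC samples and 5.91, 6.62 and 5.42 FPKM in the non-CSC samples. Both were low in every CSC sample and high in every non-CSC sample, with log2 fold changes of −4.00 and −4.24. OVOL1 and OVOL2, repressors of the mesenchymal programme, changed by −4.45 and −3.92, and ESRP2, a paralog of ESRP1, by −4.03. The luminal factors GATA3 and FOXA1 had smaller changes, of −1.90 and −2.13. TP63, a factor of basal epithelium, was the exception, at 12.1, 10.7 and 11.7 FPKM in the CSC samples and 2.17, 2.12 and 2.81 FPKM in the non-CSC samples, 4.87 times as high in CSC. EHF, another epithelial factor, was at 19.1 against 20.1 FPKM and was not called.

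Keratins, the intermediate filament proteins of epithelia, were mostly lower in CSC, and both luminal and basal members were among the lower genes. The basal keratin KRT14 was tested and was not called. Of 24 listed, 18 were tested, 12 were lower and 1 was higher, with a median of −2.87. KRT19, a keratin of luminal cells, was at 42.4, 41.1 and 42.3 FPKM in the CSC samples and 1151, 1107 and 1123 FPKM in the non-CSC samples. The basal keratin KRT5 was at 6.04, 5.58 and 5.30 FPKM in the CSC samples and 137, 145 and 142 FPKM in the non-CSC samples. Neither overlapped between the fractions, and the fold differences were 26.9 and 25.1. KRT8 and KRT18, a luminal pair, had smaller changes of −2.35 and −2.39, and KRT17 changed by −3.02. KRT6A, KRT6B and KRT6C, which are near-identical and may share reads, changed by −4.58, −4.80 and −4.30. KRT75 was the keratin called higher, at 22.8 against 2.93 FPKM, while KRT7 was abundant in both fractions, at 304 against 597 FPKM, and was not called.

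EMT factors and mesenchymal genes were mostly higher in CSC, but the EMT factors did not move together. Of 20 listed, 16 were tested, 11 were higher and 2 were lower, with a median of 1.91. VIM, encoding the mesenchymal filament vimentin, was at 2008, 2187 and 2075 FPKM in the CSC samples and 226, 222 and 284 FPKM in the non-CSC samples. ZEB1, a repressor of CDH1, was at 7.39, 6.43 and 6.63 FPKM in the CSC samples and 0.778, 0.633 and 0.916 FPKM in the non-CSC samples. Both were higher in every CSC sample, 8.57 and 8.79 times the non-CSC mean. VIM had a log2 fold change of 3.11 ± 0.105 (SE, adjusted p = 8.54e-07) and ZEB1 a log2 fold change of 2.99 ± 0.126 (SE, adjusted p = 1.99e-06). ZEB2 and SNAI2, also CDH1 repressors, rose by 1.98 and 1.92, TWIST2 by 1.89 and CDH2, encoding N-cadherin, by 2.68. FOXC2, a factor of mesenchymal development, was at 23.2, 21.03 and 19.8 FPKM in the CSC samples and 2.41, 1.79 and 2.15 FPKM in the non-CSC samples, and podoplanin, PDPN, at 57.8 against 6.44 FPKM. SNAI1 went the other way, at 58.9, 65.4 and 61.5 FPKM in the CSC samples and 379, 371 and 368 FPKM in the non-CSC samples. It had a log2 fold change of −2.59 ± 0.0584 (SE, adjusted p = 2.29e-07), and its CSC samples all lay below its non-CSC samples. TWIST1 was also lower, with a log2 fold change of −1.02, a value so near the limit that 1 listed gene rather than 2 was lower with a pseudocount of 1 or with TPM, upper quartile or quantile scaling. Fibronectin, FN1, was at 288 against 223 FPKM and was not called.

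**Figure D3:**
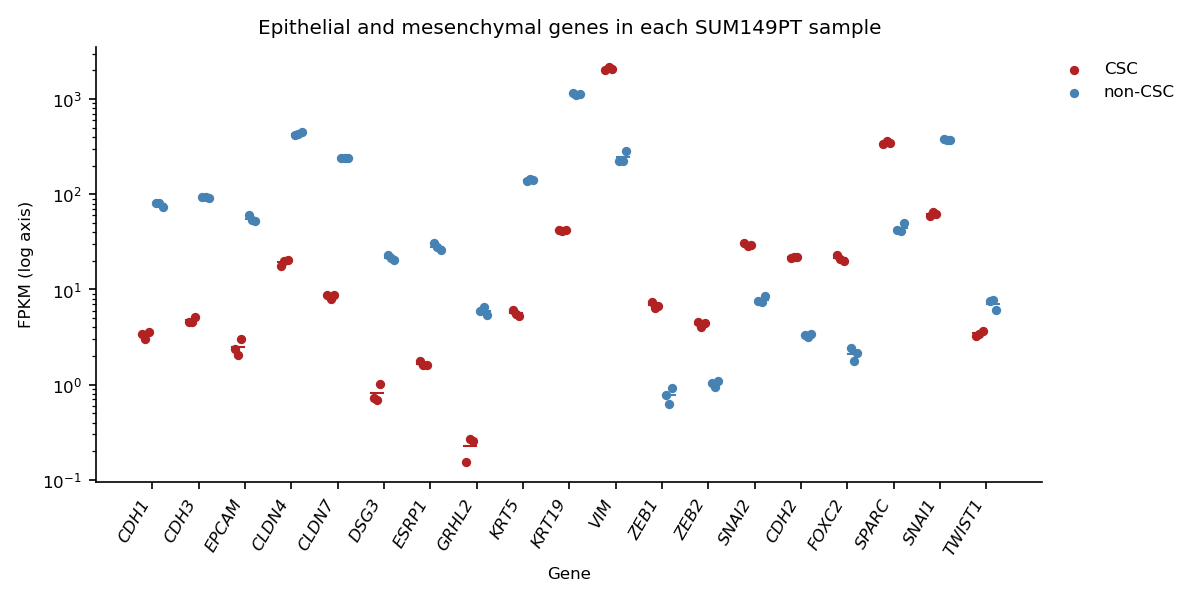
FPKM of 10 epithelial and 9 mesenchymal or EMT genes in each SUM149PT sample (log axis); points are the 3 CSC samples (red) and the 3 non-CSC samples (blue), and short lines are their means. CSC lie below non-CSC for all 10 epithelial genes and for SNAI1 and TWIST1, and above them for the other 7.

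Extracellular matrix genes were higher in CSC more often than not. Of 41 listed, 35 were tested, 20 were higher and 3 were lower, with a median of 1.30. SPARC, a matricellular glycoprotein, was at 342, 362 and 350.1 FPKM in the CSC samples and 42.3, 41.3 and 49.8 FPKM in the non-CSC samples. The samples of the fractions were far apart, with a log2 fold change of 2.98 ± 0.0835 (SE, adjusted p = 4.33e-07). Chains of fibrillar collagens (COL1A1 2.14, COL3A1 2.26, COL5A1 2.26, COL5A2 2.67) and of basement membrane collagens (COL4A1 1.73, COL4A6 2.74, COL18A1 2.20) were higher. TGFBI, an adhesion protein of the matrix, reached 777 FPKM in CSC against 151 FPKM in non-CSC. COL1A2, the partner chain of COL1A1 in collagen I, was at 0.102 against 0.0339 FPKM, under the minimum. The small proteoglycans BGN and DCN were lower in CSC, at 0.176, 0.209 and 0.230 FPKM in the CSC samples and 4.14, 5.01 and 4.31 FPKM in the non-CSC samples and, for DCN, 1.80 against 16.2 FPKM as means. THBS1 (−1.07) was also lower.

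Integrin and laminin subunits changed in both directions, 5 higher and 5 lower of 19 tested (25 listed, median 0.60). Integrin ITGB3 was higher in CSC, at 32.2, 29.7 and 31.8 FPKM in the CSC samples and 3.52, 3.13 and 4.52 FPKM in the non-CSC samples, and ITGB8 was lower, at 0.578, 0.441 and 0.541 FPKM in the CSC samples and 13.7, 14.4 and 11.9 FPKM in the non-CSC samples. The widely used subunit ITGB1 was at 136 against 81.6 FPKM and was not called. Among laminins, LAMA3 and LAMB3 were lower (−2.26 and −1.42). Contractile and cytoskeletal genes gave 5 higher and 3 lower of 16 tested (21 listed, median 0.30). TPM1, a tropomyosin, rose by 2.44 and ACTA2, smooth muscle actin, by 1.71, and the myosin light chain MYL9 and the actin binding TAGLN changed by −1.66 and −1.53. Metalloproteases, plasminogen activators and their inhibitors gave 9 higher and 8 lower of 19 tested (23 listed, median 0.56). MMP7, a matrilysin of glandular epithelium, was at 2.46, 1.88 and 2.53 FPKM in the CSC samples and 48.02, 42.2 and 49.3 FPKM in the non-CSC samples, and MMP9, a gelatinase, changed by −3.32. The gelatinase MMP2, the collagenase MMP1 and the urokinase gene PLAU rose by 1.21, 2.18 and 1.82, and PLAUR, the receptor of urokinase, changed by −1.55.

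Secreted products of epithelia were almost wholly lower in CSC. Of 29 genes of epithelial defence and the acute phase, 16 were tested, 13 were lower and 0 were higher, with a median of −4.21. LCN2, which sequesters bacterial siderophores, was at 88.2, 96.7 and 95.2 FPKM in the CSC samples and 2532, 2197 and 2355 FPKM in the non-CSC samples. S100A8, which forms calprotectin with S100A9, was at 14.4, 12.9 and 15.2 FPKM in the CSC samples and 464, 388 and 529 FPKM in the non-CSC samples. SLPI, an inhibitor of leukocyte elastase, was at 39.2, 40.4 and 39.8 FPKM in the CSC samples and 1230.02, 927 and 1166 FPKM in the non-CSC samples. Each was among the abundant RNAs of every non-CSC sample and 25.3, 32.5 and 27.8 times lower as a mean in CSC. LCN2 had a log2 fold change of −4.66 ± 0.0734 (SE, adjusted p = 1.09e-07). Complement C3 was lower by less, at 151 against 929 FPKM.

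Genes of squamous differentiation were lower in the same way, although the line is of breast origin. Of 34 listed, 13 were tested, 12 were lower and 0 were higher, with a median of −4.03. The ammonium transporter RHCG was at 7.003, 6.63 and 6.92 FPKM in the CSC samples and 264, 243 and 258 FPKM in the non-CSC samples, 37.2 times as high in non-CSC. SPRR2E and SPRR2A, precursors of the cornified envelope that resemble each other and may share reads, changed by −5.30 and −5.03. All 14 tested of 28 serine proteases, serpins and Kazal or Kunitz inhibitors were lower, with a median of −4.37. ST14, the membrane protease matriptase, was at 1.90, 1.999 and 2.09 FPKM in the CSC samples and 46.5, 43.7 and 42.7 FPKM in the non-CSC samples, and its inhibitor SPINT1 at 13.7 against 306 FPKM. SERPINB3 and SERPINB4, near-identical neighbours, changed by −4.98 and −4.95. Mucins, secretory products and glycan enzymes gave 12 lower and 0 higher of 15 tested (29 listed, median −3.27). WFDC2, a secreted protease inhibitor, was at 174, 180.2 and 182 FPKM in the CSC samples and 5839, 4817 and 5819.7 FPKM in the non-CSC samples, and was the most abundant of them in every sample. GALNT3, which starts mucin glycans, changed by −4.30, and the fucosyltransferases FUT2 and FUT3 by −4.13 and −3.30.

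Chemokines and cytokines split. Of 29 listed, 24 were tested, 12 were lower, 4 were higher and 8 were not called, with a median of −1.12. The neutrophil attractant CXCL1 was at 24.8, 21.04 and 27.6 FPKM in the CSC samples and 666, 627 and 603 FPKM in the non-CSC samples. CCL20, which attracts cells bearing CCR6, was at 6.77, 7.48 and 6.49 FPKM in the CSC samples and 161, 117 and 144 FPKM in the non-CSC samples. IL36G, an epithelial cytokine of the interleukin 1 family, was at 1.43, 1.31 and 1.62 FPKM in the CSC samples and 50.5, 47.5 and 47.3 FPKM in the non-CSC samples. In each the CSC samples lay far below the non-CSC samples. Their neighbours in function did not all follow. CXCL2, close in sequence to CXCL1, was at 115, 115 and 117 FPKM in the CSC samples and 81.6, 69.8 and 79.9 FPKM in the non-CSC samples and was not called, with a log2 fold change of 0.59, and CXCL3, also close in sequence, was at 30.6 against 34.3 FPKM, with −0.16, and these genes may share reads. IL8, the most abundant member, was at 1698 against 1334 FPKM and was not called. CSF2, which encodes GM-CSF, was higher in CSC, at 82.6, 91.7 and 94.03 FPKM in the CSC samples and 13.9, 14.7 and 19.96 FPKM in the non-CSC samples, a change of 2.48. IL6 changed by 1.02, just over the fold limit.

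These genes were compared by their promoters, because members of the list that share a motif changed differently. A form of the NF-kappaB motif, of 10 letters, was searched on both strands in the 250 bases before the start of each gene in RefSeq (GRCh38.p14). It was in 8 of the 17 promoters found for the 24 tested members (CXCL1, CXCL2, CXCL3, CXCL5, CXCL6, CCL20, IL6 and IL32), in 0 of 9 found for the 16 tested defence genes, and in 473 of 27305 promoters in all (1.73%). A match describes letters, not a binding site. The E-box CAGGTG, a motif of EMT factors, was also searched on both strands and was in 4 of the 17 promoters found for the 31 tested junction genes (TJP1, DSP, DSG2 and DSC2) and in 4781 promoters in all (17.5%). The stretches below hold the motif in capitals within 90 bases, 5′ to 3′ on the strand of the gene: CXCL1 chr4:73869274-73869363 (plus strand), CXCL6 chr4:73836548-73836637 (plus), CXCL5 chr4:73998719-73998808 (minus), CCL20 chr2:227813723-227813812 (plus), CXCL2 chr4:74099224-74099313 (minus), CXCL3 chr4:74038719-74038808 (minus) and IL6 chr7:22727087-22727176 (plus). The motif starts 79 bases before the gene in CXCL1, 90 in CXCL6, 91 in CXCL5, 79 in CCL20, 78 in CXCL2, 79 in CXCL3 and 73 in IL6.
CXCL1: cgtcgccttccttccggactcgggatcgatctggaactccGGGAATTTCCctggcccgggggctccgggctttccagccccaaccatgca
CXCL6: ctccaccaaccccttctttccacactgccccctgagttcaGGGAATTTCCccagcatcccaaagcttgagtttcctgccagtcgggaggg
CXCL5: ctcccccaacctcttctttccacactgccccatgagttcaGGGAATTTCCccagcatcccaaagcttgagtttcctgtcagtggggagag
CCL20: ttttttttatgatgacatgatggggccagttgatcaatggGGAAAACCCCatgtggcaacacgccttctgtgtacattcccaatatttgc
CXCL2: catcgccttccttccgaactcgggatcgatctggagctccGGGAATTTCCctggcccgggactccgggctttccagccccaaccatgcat
CXCL3: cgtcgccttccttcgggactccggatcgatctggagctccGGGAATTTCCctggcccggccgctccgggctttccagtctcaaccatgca
IL6: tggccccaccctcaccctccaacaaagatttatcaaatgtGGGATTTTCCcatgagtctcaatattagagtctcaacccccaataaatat
The genes of the upper 4 stretches were lower in CSC, with log2 fold changes of −4.69 (CXCL1), −4.93 (CXCL6), −4.27 (CXCL5) and −4.32 (CCL20). CXCL2 (0.59) and CXCL3 (−0.16) were not called, and IL6 (1.02) was called higher, just over the fold limit. IL32 (0.72), whose stretch is not shown, was not called. The promoter stretches of CXCL1, CXCL2 and CXCL3 are alike around the motif, as are those of CXCL5 and CXCL6.

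The NF-kappaB pathway itself changed in few genes. Of 25 subunits and feedback genes, 24 were tested, 2 were higher, 2 were lower and 20 were not called, with a median of 0.08. RELA, a subunit, was at 72.6 against 88.7 FPKM, and the feedback inhibitor NFKBIA at 172 against 93.5 FPKM, neither called. NFKB1 and BIRC3 rose by 1.39 and 1.84, and TNFAIP2 (at 233 against 659 FPKM) and the kinase gene IKBKE (−1.98) were lower. Interferon stimulated genes gave 4 higher and 5 lower of 34 tested (41 listed, median 0.19). These counts moved to 8 higher and 3 lower with quantile normalization and to 2 and 3 with a pseudocount of 1. GBP1 and OAS2, which act against intracellular microbes and viral RNA, rose by 1.35 and 1.35, and HERC5 and ISG20 changed by −2.30 and −1.78.

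Genes of antigen presentation gave 3 higher and 3 lower of 13 tested (24 listed, median 0.47), or 6 higher with quantile normalization. HLA-C was at 948, 1066 and 983 FPKM in the CSC samples and 2681, 2539 and 2471 FPKM in the non-CSC samples, lower in every CSC sample. B2M, the shared light chain of class I molecules, was at 531 against 412 FPKM and was not called. The peptide transporter genes TAP1 and TAP2 changed in opposite directions, by −5.21 and 2.04, and TAP2 spread from 23.5 to 52.9 FPKM within CSC. HLA genes are alike and may share reads, and HLA-E, PSMB8 and PSMB9, which most cells express, were listed at or near 0, so values of this region are uncertain. Of 47 tested genes of the major histocompatibility region of chromosome 6, 13 were higher and 21 were lower. This is 72.3% called, against 30.2% of all genes tested, and 7 of the 47 were listed at 0 in at least 1 sample.

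Luminal and basal genes were also counted as wider lists. Of 24 hormone receptor and luminal genes, 16 were tested, 9 were lower and 3 were higher, with a median of −1.52. ESR1 and PGR, the receptors whose absence defines triple negative tumours with that of ERBB2 amplification, were at 0.0743 against 0.970 FPKM and 0.00101 against 0 FPKM, under the minimum. ERBB3 changed by −3.70. The glucocorticoid receptor gene NR3C1 rose by 1.62. Of 20 basal and myoepithelial genes, 18 were tested, 9 were higher and 4 were lower, with a median of 1.01. NGFR, a neurotrophin receptor of basal cells, was at 14.8, 15.5 and 16.02 FPKM in the CSC samples and 3.20, 2.68 and 4.05 FPKM in the non-CSC samples, and CAV1, of caveolae, rose by 2.17. As KRT5, KRT17 and CDH3 were lower, the basal genes divided. The list shares VIM and SNAI2, both higher, with the mesenchymal list.

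Receptor tyrosine kinases changed in both directions. Of 27 listed outside the ERBB family, 17 were tested, 5 were higher and 6 were lower, with a median of 0.22. PDGFRB, a receptor of mesenchymal cells, was at 8.98, 9.16 and 9.09 FPKM in the CSC samples and 0.944, 0.815 and 1.18 FPKM in the non-CSC samples. DDR1, an epithelial collagen receptor, was at 11.6, 9.97 and 10.7 FPKM in the CSC samples and 263, 256 and 256 FPKM in the non-CSC samples. Neither overlapped between the fractions, and the log2 fold changes were 3.10 and −4.58. PDGFRA, FGFR1, AXL and MET were higher, by 3.11, 1.91, 2.04 and 1.21, and EPHA1, MST1R, EPHB3, FGFR4 and ROR2 were lower, with changes from −4.21 (ROR2) to −3.50 (FGFR4). In the ERBB family 11 of 17 genes were tested, with 2 higher (the ligands EREG, 2.13, and HBEGF, 1.13) and 2 lower (ERBB3 and the ligand AREG, −1.07), and a median of 0.47. AREG was not called with a pseudocount of 1, with quantile normalization, or without CSC replicate 2 or non-CSC replicate 2. EGFR was at 25.03 against 13.6 FPKM and was not called.

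MAPK feedback genes, whose RNA rises with activity of the pathway, were higher more often than lower. Of 27 listed, 26 were tested, 10 were higher and 1 was lower, with a median of 0.69. DUSP6, a phosphatase of ERK, was at 45.5, 45.95 and 44.5 FPKM in the CSC samples and 15.2, 14.5 and 16.1 FPKM in the non-CSC samples. SPRY2 and SPRY4, inhibitors of receptor signalling, rose by 1.54 and 1.31, and ETV1 and ETV5, transcription factors, by 2.42 and 1.06. MYC was at 470.01, 494 and 472 FPKM in the CSC samples and 144, 142 and 149 FPKM in the non-CSC samples, 3.30 times as high in CSC. DUSP4 went the other way, at 8.84, 9.17 and 8.88 FPKM in the CSC samples and 51.1, 50.4 and 46.4 FPKM in the non-CSC samples, with a log2 fold change of −2.45 ± 0.0588 (SE, adjusted p = 2.85e-07). In the members named, every CSC sample lay on the same side of every non-CSC sample, as in 82.7% of all genes tested.

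Genes of TGF-beta, activin and BMP signalling changed in both directions. Of 43 listed, 37 were tested, 9 were higher and 8 were lower, with a median of 0.36. Among ligands, TGFB2 was at 6.24, 5.27 and 6.27 FPKM in the CSC samples and 73.3, 71.5 and 62.8 FPKM in the non-CSC samples, and BMP4 (−3.57) and INHBA (−2.36) were also lower, while GDF15 was higher, at 613, 663 and 585 FPKM in the CSC samples and 103, 98.6 and 133 FPKM in the non-CSC samples. Among receptors and transducers, TGFBR3 rose by 2.18 and SMAD3, which carries the TGF-beta signal to the nucleus, by 2.04, from 20.3 to 84.03 FPKM. The feedback inhibitors SMAD6 and SMAD7 rose by 1.38 and 1.29. The ID genes, targets of BMP, were lower, with ID1 at 55.2 against 211 FPKM, ID2 at 66.02 against 215 FPKM and ID4 at 0.141 against 3.41 FPKM. The BMP antagonists changed oppositely, NOG by 3.65 and GREM1 by −3.84. NOG ranged from 0.0624 to 0.791 FPKM over the non-CSC samples and from 4.71 to 5.75 over the CSC samples.

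Notch genes gave 3 higher and 6 lower of 17 tested (22 listed, median 0.09). The ligands DLL4 and JAG1 changed by −4.36 and −1.34, the receptor gene NOTCH3 by −1.88 and the feedback gene NRARP by −2.79. HES1, a target of the pathway, was at 288 against 146 FPKM and just under the fold limit (0.97), which it passed with TPM or upper quartile scaling or without CSC replicate 3. With these, 5 Notch genes were higher. Wnt genes gave 3 higher and 8 lower of 30 tested (42 listed, median −0.10), or 6 higher with quantile normalization. The secreted inhibitor SFRP1 was at 0.850, 0.692 and 0.778 FPKM in the CSC samples and 22.6, 20.97 and 19.5 FPKM in the non-CSC samples and DKK3 at 34.2, 35.96 and 35.9 FPKM in the CSC samples and 4.04, 3.76 and 4.44 FPKM in the non-CSC samples, so these secreted Wnt regulators changed in opposite directions. WNT7B rose by 2.13, and WNT6, WNT10A and WNT11 changed by −3.83, −3.27 and −3.44. Hippo effectors and YAP targets gave 0 higher and 4 lower of 20 tested (23 listed, median 0.10). With quantile normalization 3 were higher. The lower members were the kinase and scaffold genes SAV1 (−2.39), LATS2 (−1.42) and STK3 (−1.27) and the coactivator gene WWTR1 (−1.10), and the targets CTGF and CYR61 were at 31.6 against 21.7 FPKM and 80.7 against 75.01 FPKM.

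Markers that are used for breast stem cells did not move as a group. Of 17 surface and enzyme markers, 12 were tested, 3 were higher and 3 were lower, with a median of 0.26. NT5E and PROCR, surface proteins that mark mesenchymal and mammary progenitor cells, rose by 2.59 and 1.94 and ITGA6 by 1.19. Of the 3 lower members, CD24 was a sort antigen, CD9 changed by −3.14, and ALDH1A3, an enzyme of retinoic acid synthesis, was at 28.9, 25.95 and 28.2 FPKM in the CSC samples and 311, 295 and 276 FPKM in the non-CSC samples. PROM1 was listed at 0 in all 6 samples. Among 19 aldehyde dehydrogenases, 14 were tested, 7 were lower and 1 was higher, with a median of −0.87. ALDH2, the mitochondrial enzyme that clears acetaldehyde, was at 2.22, 2.09 and 2.21 FPKM in the CSC samples and 34.4, 33.5 and 32.4 FPKM in the non-CSC samples, and ALDH3B2 changed by −5.12. ALDH1B1 was the member that rose, by 1.70. Of 23 pluripotency and SOX factors, 13 were tested, 3 were higher (MYC, MYCN and POU5F1) and 2 were lower (SOX9 and SOX15), with a median of 0.23. POU5F1, which lies in the major histocompatibility region and has pseudogenes, was at 108, 98.8 and 95.5 FPKM in the CSC samples and 14.2, 18.7 and 18.97 FPKM in the non-CSC samples. NANOG and SOX2 were at 0.00541 against 0.385 FPKM and 0.0231 against 0 FPKM, under the minimum.

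Cholesterol and fatty acid synthesis genes were lower in CSC, and their effect differed from that in HCC1937. FASN, fatty acid synthase, was at 38.8, 34.6 and 36.5 FPKM in the CSC samples and 469.9, 492 and 483 FPKM in the non-CSC samples. SREBF1, the transcription factor of fatty acid synthesis genes, was at 15.2, 14.2 and 13.5 FPKM in the CSC samples and 118, 125 and 122 FPKM in the non-CSC samples. The CSC samples were low in both, with a log2 fold change of −3.71 ± 0.0615 (SE, adjusted p = 1.22e-07) for FASN and a log2 fold change of −3.08 ± 0.0630 (SE, adjusted p = 1.75e-07) for SREBF1. Of 29 listed genes, 28 were tested, 17 were lower and 2 were higher, with a median of −1.49. The desaturase genes FADS2, FADS1 and SCD changed by −4.12, −2.52 and −2.66, and INSIG1, which retains the sterol sensor in the endoplasmic reticulum, by −2.84. Within the pathway to cholesterol, IDI1 and MSMO1 changed by −2.38 and −2.33, HMGCS1 was at 23.8 against 34.6 FPKM and was not called, and SQLE was higher, at 107 against 48.9 FPKM. SREBF2, the factor of cholesterol synthesis genes, was at 47.6 against 50.6 FPKM. In HCC1937 the median of the same 28 genes was 0.28, and by the test of the difference between the lines 19 genes had a lower and 1 a higher effect in SUM149PT. For FASN the difference was −3.78 (standard error 0.107, adjusted p = 1.19e-09), with 64.6 against 61.8 FPKM in HCC1937 CSC and non-CSC.

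**Figure D4:**
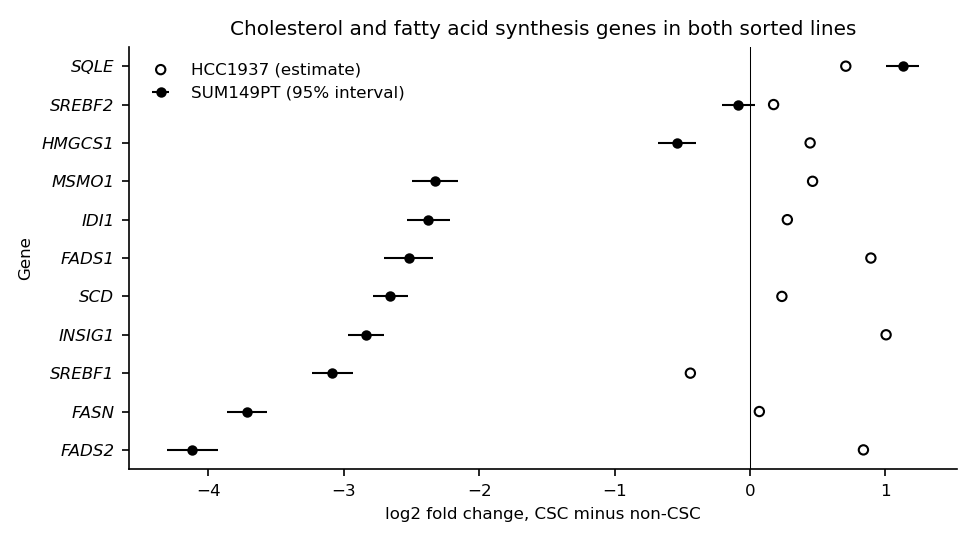
Log2 fold change (x axis, CSC minus non-CSC) of the 11 named genes of cholesterol and fatty acid synthesis, ordered by their value in SUM149PT. Filled circles with lines are SUM149PT with the 95% interval of the limma fit, open circles are the estimates in HCC1937, and most SUM149PT values lie left of 0 while most HCC1937 values lie near or right of it.

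Sphingolipid and eicosanoid enzymes, the family of the enzymes the study followed, gave 12 lower and 5 higher of 27 tested (38 listed, median −0.41). The 5 higher were the ceramide synthases CERS1 (1.40), CERS2 (1.11), CERS4 (1.81) and CERS6 (1.19) and the sphingosine kinase SPHK1 (1.04). ASAH1, the acid ceramidase, was at 4.67, 3.85 and 4.67 FPKM in the CSC samples and 36.9, 33.04 and 33.7 FPKM in the non-CSC samples, and UGT8, which makes galactosylceramide, changed by −3.35. In the prostaglandin branch PLA2G4A, PTGS2 and PTGES, acting in that order, were all lower, with changes of −2.71, −2.39 and −1.80. Of 7 candidate genes that the study chose from these samples, 3 were tested (KCNMA1, TGFBR2 and TNC) and all 3 were higher, which is not independent evidence of their direction. The median of these was 2.68, and the other 4 (FA2H, ALOX15B, IL2RG and TNNC1) were under the minimum, FA2H at 0.241 against 1.35 FPKM.

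Proliferation genes changed little. Of 42 cell cycle and replication genes, 40 were tested, 4 were higher, 4 were lower and 32 were not called, with a median of 0.19. MKI67, found in dividing cells, was at 5.38, 4.61 and 5.23 FPKM in the CSC samples and 3.28, 3.05 and 3.37 FPKM in the non-CSC samples, with a log2 fold change of 0.63, under the fold limit. The mitotic genes CCNB2, TTK, TOP2A and CENPE rose by 1.01 to 1.15, while E2F1 and MCM2, of the entry into replication, changed by −1.71 and −1.22 and AURKA by −1.14. With a pseudocount of 1, TTK was not called and 2 cell cycle genes were higher. Of 32 genes of the stress response and cell death, 31 were tested, 9 were higher and 4 were lower, with a median of 0.57. GADD45A, a stress gene, was at 329.7, 349 and 343 FPKM in the CSC samples and 80.3, 85.8 and 84.4 FPKM in the non-CSC samples, and the caspase genes CASP1, CASP4 and CASP8 rose by 2.12, 1.22 and 1.14. CDKN1A, an inhibitor of the cell cycle, was at 213 against 208 FPKM and was not called, and SFN, an epithelial member, changed by −2.72.

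Glycolysis and hypoxia genes gave 2 higher and 2 lower of 31 tested (31 listed, median 0.23), with SLC2A3, a glucose transporter, at 68.4, 72.1 and 71.99 FPKM in the CSC samples and 19.5, 19.5 and 19.8 FPKM in the non-CSC samples and GAPDH at 1746 against 1264 FPKM. NRF2 and antioxidant genes gave 4 higher and 2 lower of 29 tested (34 listed, median −0.24). SLC7A11, the cystine importer, was at 48.7, 43.7 and 45.8 FPKM in the CSC samples and 12.6, 12.7 and 12.9 FPKM in the non-CSC samples, and the ferritin heavy chain FTH1 changed by −1.29. KEAP1, at 5.67 against 11.4 FPKM, was at the fold limit, and with TPM, upper quartile or quantile scaling or a pseudocount of 1 a single gene of the list was lower. By name, nuclear genes of the respiratory chain, which include pseudogenes, gave 3 higher and 5 lower of 78 tested (110 listed, median −0.14). Without pseudogenes, a choice made after seeing the data, 76 of 85 were tested, 3 were higher and 4 were lower, with a median of −0.12. Either way 5 were higher with upper quartile scaling and 6 with quantile normalization, and 0 of the 13 genes of the mitochondrial genome were in the table.

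Cytosolic ribosomal protein genes were shifted upwards in CSC. By name, 120 genes were tested of 333, which include pseudogenes, and 27 were higher and 4 were lower, with a median of 0.74. Without pseudogenes, a choice made after seeing the data, 72 of 82 were tested, 18 were higher and 1 was lower, with a median of 0.77. RPL37 was at 413, 529 and 491 FPKM in the CSC samples and 153, 127 and 160.2 FPKM in the non-CSC samples and RPS25 at 645, 804 and 918 FPKM in the CSC samples and 271, 311 and 333 FPKM in the non-CSC samples. RPL37A, the most abundant, was at 3097, 3736 and 3232 FPKM in the CSC samples and 1820.2, 1469 and 2029 FPKM in the non-CSC samples and was not called, except without non-CSC replicate 3. The lower member was RPL39L, a form of RPL39 with restricted expression, at 0.932, 1.34 and 0.551 FPKM in the CSC samples and 22.9, 17.4 and 23.04 FPKM in the non-CSC samples. Ribosomal genes may share reads with their many pseudogenes, so single values are uncertain.

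Some of the abundant genes that were lower kept only a small share of their level in CSC. Among 436 genes whose non-CSC mean was 100 FPKM or more (small RNAs left out, a choice made after seeing the data), the mean in CSC was 2.5 to 5% of that in non-CSC in 39 genes, 5 to 10% in 9, 10 to 20% in 27, 20 to 50% in 58, 50 to 100% in 115 and above it in 188. None was at or under 2.5%, and the lowest was RHCG at 2.69%. Epithelial products such as LCN2, KRT19, CLDN7 and WFDC2 lay in the 2.5 to 5% class. Among 412 genes equally abundant in CSC, the mean in non-CSC was 5 to 10% in 1 gene (LENG1, 7.19%), 10 to 20% in 16, 20 to 50% in 89, 50 to 100% in 210 and above it in 96, and under 5% in 0. The lowest shares were therefore smaller in CSC than in non-CSC. Post-sort purity is not given in the labels, and the part that cells of the other fraction have in these shares was not tested.

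**Figure D5:**
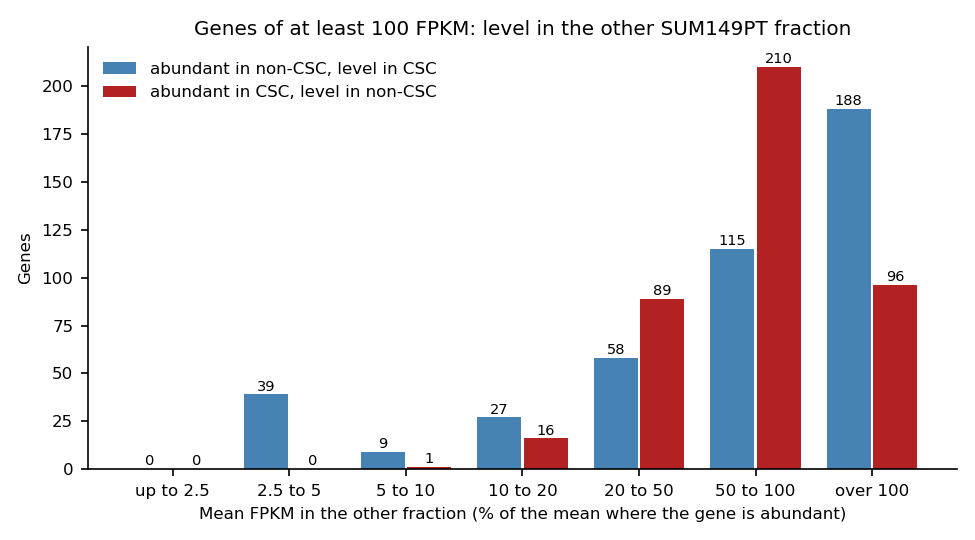
Number of genes (y axis) by their mean FPKM in the other fraction, as a percent of the mean in the fraction where they have at least 100 FPKM (x axis). Blue bars are the 436 genes abundant in non-CSC and red bars the 412 abundant in CSC, with the number on each bar, and 39 blue genes but 0 red ones lie in the class of 2.5 to 5%.

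The largest changes outside overlap were partly in small RNAs and little known genes. SNORA70 was listed at 0 in all CSC samples and at 995, 419.9 and 1091 FPKM in non-CSC, and SNORA18 and SNORA63 were listed at 0 in all non-CSC samples and at 1399.99, 987 and 326 and at 949, 509.7 and 503 FPKM in CSC. These are small nucleolar RNAs, shorter than usual RNA fragments, and of 45 small RNA genes tested 36 were listed at 0 in at least 1 sample, so their FPKM is uncertain. Other lower genes of this kind were CST6, encoding the protease inhibitor cystatin M, at 0, 0.301 and 0.443 FPKM in the CSC samples and 13.6, 11.8 and 14.97 FPKM in the non-CSC samples, the metallothionein gene MT1L at 0.218, 1.44 and 1.98 FPKM in the CSC samples and 44.9, 24.5 and 56.8 FPKM in the non-CSC samples and RNF223 at 0.373, 0.117 and 0.190 FPKM in the CSC samples and 11.8, 11.01 and 10.7 FPKM in the non-CSC samples. Also lower were GTF2H4, HLA-H, LOC101929414, SPRR2E, TAP1 and RHCG. Of these GTF2H4 was listed at 0 in 1 CSC sample, HLA-H in 2 and LOC101929414 in all 3. The uncertainty stated above for the major histocompatibility region covers HLA-H and TAP1. Among higher genes, CACNG7 was at 13.9, 17.2 and 15.9 FPKM in the CSC samples and 1.51, 0.677 and 1.53 FPKM in the non-CSC samples, LENG1 at 616, 968 and 461 FPKM in the CSC samples and 39.1, 24.2 and 83.8 FPKM in the non-CSC samples and the long noncoding RNA CASC9 at 2.19, 2.98 and 2.36 FPKM in the CSC samples and 0.0914, 0.109 and 0.128 FPKM in the non-CSC samples. AC012314.8 and LOC102723352 were listed at 0 in every non-CSC sample, KRTAP21-2 in 2 of 3, and LOC102724258, at 1.998, 9.09e-05 and 1.44 FPKM in non-CSC, and NOG complete the higher genes. Single samples set the size of several of these changes, although each was still called without them. The log2 fold change of GTF2H4 went from −5.53 to −4.86 without CSC replicate 3, and those of CST6 and MT1L from −5.59 and −5.31 to −4.85 and −4.47 without CSC replicate 1. For HLA-H it was −6.66, and −5.54 without CSC replicate 1 or 3 but −8.91 without CSC replicate 2. Without non-CSC replicate 2, LOC102724258 went from 4.11 to 2.72 and NOG from 3.65 to 2.97, while KRTAP21-2 went from 5.35 to 6.72, and to 4.66 without non-CSC replicate 1 or 3. LOC102724258 was at 4.91 without non-CSC replicate 1, AC012314.8 went from 6.31 to 5.64 without CSC replicate 1, and SNORA18 from 12.90 to 13.52 without CSC replicate 3.

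The effect of the fraction differed between the lines in many genes. By the interaction of fraction and line over the 12 sorted samples, 3347 of the 11992 genes differed (27.9%, adjusted p of at most 0.05 and a difference of at least 1), 1407 with a higher and 1940 with a lower log2 fold change in SUM149PT. The genes were those that passed the minimum of 1 FPKM in SUM149PT, with no minimum in HCC1937. The log2(FPKM + 0.1) scale understates the change of those with low FPKM in HCC1937. Its part in the differences between the lines was not tested, and the medians below are descriptions. The lists of junctions, keratins, epithelial regulators, defence, squamous differentiation, serine proteases and mucins had negative medians in both lines, nearer to 0 in HCC1937. The median of the junction list was −1.41 in HCC1937 against −3.57, and 19 of its members differed in the negative direction and 4 in the positive. For CDH1 the difference was −2.23 (standard error 0.110, adjusted p = 3.54e-08), with 16.9 against 82.8 FPKM in HCC1937. VIM rose in both lines, by 3.11 and 2.57, and its difference of 0.53 was under the limit. Chemokines and cytokines had a median of 0.71 in HCC1937 against −1.12, with 16 differences negative and 4 positive. The basal list had −0.15 against 1.01, and TP63 changed by −0.81 in HCC1937 against 2.24, a difference of 3.05 (adjusted p = 2.2e-08). MAPK feedback genes had 0.08 against 0.69, with 9 differences positive and 2 negative.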

How the data were processed

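RNA of 6 SUM149PT samples, 3 sorted CSC and 3 sorted non-CSC, was compared, with 6 sorted HCC1937 samples for the test of a difference between lines. The authors deposited FPKM values by gene symbol. The submitters' processing notes name Bowtie2 and GRCh38 without versions, and the tool that made the FPKM and its annotation are not given in the sources used here, nor is whether strand was used, so overlapping and antisense genes are uncertain. Low values gave no whole reads, so the precision rests on the 3 samples of a group.

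Deposited FPKM values were put on the scale log2(FPKM + 0.1) and fitted by lmFit and eBayes of limma 3.58.1 (default settings, R 4.3.3) for genes averaging 1 FPKM or more over the 6 samples, with Benjamini-Hochberg adjustment over all of them. Calls needed adjusted p no higher than 0.05 and a log2 fold change of 1 or more in either direction. The line difference was tested as an interaction over 12 samples and the same genes. The scripts were tested on simulated data. Python 3.11.15, pandas 2.3.3, numpy 2.4.6 and matplotlib 3.10.9 were used.

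The members and lists were chosen with earlier results of these data known. Named genes were CD24 and CD44, the study's candidates, the 10 largest changes without overlap in each direction, and in each list up to 4 called members with the largest change and the most abundant member, and some of these are not reported here. Other genes, list members included, were chosen after their values were seen, as were the promoter motif, the classes of abundant genes, the windows along chromosomes and the gene classes left out in turn. Positions and promoters came from RefSeq (GRCh38.p14), matched by symbol. Alternatives were the pseudocount, the expression minimum, scaling, eBayes moderation, all 15 samples in the fit, the replicate number as a block, the limits of the call and leaving out each sample.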

Additional observations from a re-analysis of the deposited data

Results flagged for a closer look

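The effect of the fraction differed between SUM149PT and HCC1937, by the interaction of fraction and line, in 3347 genes. The genes tested had passed the minimum in SUM149PT alone. Among the genes read for this in lipid synthesis, the SUM149PT log2 fold change minus that of HCC1937 was −3.78 for FASN, −3.84 for INSIG1 and −2.89 for SCD. Among chemokines and growth factors it was −6.46 for CXCL1, −7.40 for CXCL6 and −6.02 for CSF3, and for CDH1 it was −2.23. Each had an adjusted p of at most 0.05. HMGCS1 (−0.98) and VIM (0.53) were read with them and were under the limit on the difference. Groups of 3 samples were not tested for samples that stand apart.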

How the results depend on the processing

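The count of 3623 called genes followed the expression minimum and the limits of the call: it was 5596 (3551 lower) with a minimum of 0.1 FPKM, 5750 (3669 lower) with none, and 1928 (829 higher, 1099 lower) with 5 FPKM, where the number of genes tested differs by construction. With no fold limit it was 9588 (4560 higher, 5028 lower), and with a limit of 2 on the log2 scale 1451 (432 higher, 1019 lower). The count of line differences was 8198 with no fold limit. The other alternatives stayed within 1.5 times: 3720 and 2902 with pseudocounts of 0.01 and 1, 3692 with TPM, 3633 with upper quartile and 3726 with quantile scaling, 3636 and 3619 with an eBayes trend and a robust trend, and 3621 with all 15 samples in the fit. It was 3576 without small RNA genes and genes listed at 0, and 3589 without the major histocompatibility region, both chosen after seeing the data. Leaving out each sample in turn gave 3597 to 3677 calls and 3305 to 3385 line differences. With the replicate number as a block 3636 genes were called and 3337 line differences. Deviations from the group means correlated at 0.136, 0.029 and 0.120 between samples of the same number and at −0.195 to 0.069 between others. CSC 2 correlated best with non-CSC 3. The labels do not tie the number to a culture or sort, so whether samples of the same number are paired is unknown. With the limit of 0.0001 on adjusted p, the block gave 510 higher and 940 lower genes against 1263 and 1903, and leaving out a sample gave 925 to 1055 and 1308 to 1581; fewer residual degrees of freedom are part of both by construction. Over 199 named genes and 12 alternatives, 2375 of 2388 values kept direction and call, 7 lost and 5 gained the call, and 1 changed direction (IFITM3, not called in either, from 0.0991 to −0.0902 with quantile normalization; the cause was not tested). The other genes were AREG, IFIT2 and TTK (lost) and HES1, WNT5A and RPL37A (gained). Of 960 counts over lists, 919 stayed within 1.5 times. Depth is unknown, so no limit from counting can be given.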

Other observations

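Genes outside the lists, chosen after their values were seen, added to both directions. S100P, a calcium binding protein of epithelia, was at 35.8, 38.7 and 41.5 FPKM in the CSC samples and 1238, 1122 and 1311 FPKM in the non-CSC samples. IGFBP3, which binds insulin-like growth factors, was at 9.21, 9.59 and 10.1 FPKM in the CSC samples and 168, 167 and 167 FPKM in the non-CSC samples. CYP1B1, an enzyme induced through the aryl hydrocarbon receptor, was at 7.03 against 127 FPKM in SUM149PT (CSC against non-CSC means) and at 26.3 against 5.25 FPKM in HCC1937, a difference of log2 fold changes of −6.48 (adjusted p = 1.29e-09). SCNN1A, a subunit of the epithelial sodium channel, changed by −4.59, and ACSS2, which makes acetyl-CoA from acetate, by −3.42. Among higher genes, CD274, encoding PD-L1, was at 12.5, 12.9 and 12.8 FPKM in the CSC samples and 1.59, 1.93 and 2.04 FPKM in the non-CSC samples, 6.87 times as high in CSC, and ODC1, of polyamine synthesis, rose by 2.63. The adaptor gene GRB10 was at 134, 135 and 136 FPKM in the CSC samples and 13.2, 14.5 and 16.03 FPKM in the non-CSC samples, FEZ1 rose by 3.18, the junctional adhesion gene JAM3 by 3.52 and RCN3 by 3.04. In all of them the CSC samples and the non-CSC samples lay apart, as they did in 82.7% of all genes tested.

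Changes also ran along chromosomes in SUM149PT. Of the genes tested, 10861 (90.6%) had a position in RefSeq (GRCh38.p14), and 148 windows of 20 Mb held at least 20 of them each. The median log2 fold change of a window lay between −0.9955 and 1.79 in SUM149PT, against −0.18 and 0.16 in HCC1937. The genes were chosen by their FPKM in SUM149PT alone. Over all genes tested, 12% were called higher and 18.2% lower. The windows named next were picked after their values were seen and include those with the highest and the lowest median. In the first window of chromosome 5, 28 of 34 genes were higher and 2 were lower, with a median of 1.79, and 0.00 in HCC1937. It holds genes of unlike function, such as the homeobox gene IRX2 at 1568, 1483 and 1443 FPKM in the CSC samples and 152, 158 and 178 FPKM in the non-CSC samples, its neighbour C5orf38 at 418 against 48.1 FPKM, NDUFS6 of the respiratory chain at 91.7 against 27.1 FPKM, TRIO, an exchange factor, at 58.4 against 8.65 FPKM, and DAP at 111 against 26.9996 FPKM. In the next window of that chromosome 21 of 29 genes were higher, with a median of 1.41. In the first window of chromosome 17, 95 of 197 genes were lower and 11 were higher, with a median of −0.9955, and −0.05 in HCC1937. CLDN7 and SREBF1 lie there. Gene dosage was not measured.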
